A study of Homo sapiens with 171 samples.

Results

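Untreated cultures of 3 ovarian cancer lines named OVCA (OVCA420, OVCA429 and OVCA433) were compared with untreated cultures of 3 other established ovarian cancer lines, HeyA8, HeyC2 and TYK-nu. The comparison took 20 of the 171 arrays and 6 of the 46 lines of a series that profiled such lines with and without cisplatin. The rule names the lines and uses no measured value, but it was proposed with earlier results of these data known. OVCA420, OVCA429, OVCA433, HeyC2 and TYK-nu had 3 untreated cultures on 3 arrays each, and HeyA8 had 3 cultures on 5 arrays because 2 of them were hybridised again. Per the labels, these cultures received no agent, and no genotype or transgene is given for any line. OVCA433 belongs to the batch labelled 2 and the other 5 lines to the batch labelled 1. HeyA8 and HeyC2 are sublines of one parental line, Hey. RNA was hybridised to Affymetrix gene arrays, and levels are log2 values, so that a difference of 1 is a 2-fold difference. Repeat arrays were averaged to a culture and cultures to a line, and the line was the unit of the test, with 3 lines a side.

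Epithelial cells are held together by adherens junctions built on E-cadherin and by tight junctions, and they sort membrane proteins to an apical and a basolateral surface. Regulators such as GRHL2, OVOL2 and the ESRP splicing factors maintain that state, while ZEB1 and ZEB2 repress E-cadherin and many other epithelial genes and are themselves repressed by microRNAs of the miR-200 family. Cells that leave the epithelial state usually gain vimentin, N-cadherin and matrix proteins, and ovarian carcinoma lines are known to lie at many points between both states.

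The lines of a side were not equally distant from each other. OVCA429 and OVCA433 correlated over all 18417 genes at r = 0.977, the 4th highest value among the 153 pairs formed by the 18 replicated lines of batches 1 to 3. HeyA8 and HeyC2 correlated at 0.983, and the median pair at 0.903. OVCA420 correlated with OVCA429 at 0.9095 and with OVCA433 at 0.9212, below the 0.941 of OVCA433 with HeyA8. TYK-nu correlated with HeyA8 at 0.92 and with HeyC2 at 0.917. These correlations are across genes of one array type and carry no test. The labels do not say whether OVCA429 and OVCA433 are related, so the counts below are also given with OVCA429 and OVCA433 as 1 line and HeyA8 and HeyC2 as 1 line.

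At an adjusted p below 0.05, 159 genes were higher and 68 were lower in the OVCA lines than in HeyA8, HeyC2 and TYK-nu (limma on line means, Benjamini-Hochberg over all 18417 genes). The 227 genes make up 1.23% of the genes tested, 0.863% higher and 0.369% lower. Their median absolute difference was 2.37 on the log2 scale, beside 0.197 over all genes. In 226 of the 227 the 9 OVCA cultures and the 9 Hey and TYK-nu cultures did not overlap, and over all genes 7.27% showed no overlap. The count moved with the lines included: it was 73 without HeyC2, 87 without HeyA8, 96 without OVCA429, 118 without OVCA433, 289 without TYK-nu and 409 without OVCA420. With both like pairs merged, 2 lines against 2, limma passed 0 genes and 1391 had an unadjusted p below 0.05, against 2251 with 6 lines. All adjusted p-values below therefore count OVCA429 and OVCA433, and HeyA8 and HeyC2, as separate lines. With the pairs merged the difference of MAL2 was 8.32, of KRT19 6.28 and of CDH1 6.13, each with an adjusted p of 0.0687 (limma).

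MAL2, which encodes a membrane protein of apical transport in polarised cells, showed the largest difference of all genes. Its cultures read 12.53, 12.46 and 12.52 in OVCA420, 12.44, 12.48 and 12.63 in OVCA429, and 12.64, 12.58 and 12.79 in OVCA433. They read 4.41, 4.77 and 4.43 in HeyA8, 3.89, 4.42 and 4.61 in HeyC2, and 4.12, 4.60 and 3.38 in TYK-nu. All OVCA cultures were high and within a narrow band, and all others were low. The line means were 12.56 ± 0.09 and 4.29 ± 0.25 (SD, n = 3 lines a side), a difference of 8.27 (SE 0.16, adjusted p = 0.000119, limma) or 309-fold.

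MAL2 belongs to a list of 13 membrane proteases, their inhibitors and polarised traffic genes of epithelia, of which 10 were higher in the OVCA lines and none lower, where 0.863% of all genes were higher. In all 13 the OVCA cultures lay above the others without overlap, as they did in 4.42% of all genes. The list's median difference was 3.56, beside -0.03 over all genes. RAB25, a small GTPase of apical recycling endosomes, read 10 to 10.98 in the OVCA cultures and 3.61 to 4.29 in the others. OVCA429 was the highest line, and the gap between the sides, 6.31 (SE 0.25, adjusted p = 0.000816, limma), was far wider than any within them. ST14, the membrane serine protease matriptase, read 9.77 to 10.37 in the OVCA cultures and 5.01 to 5.56 in the others, 4.91 higher (SE 0.16, adjusted p = 0.000597, limma). PRSS8, the protease prostasin, was 3.58 higher (SE 0.41). The genes of their Kunitz inhibitors were higher as well, SPINT2 by 4.50 (SE 0.39) and SPINT1 by 3.56 (SE 0.23). CDS1, an enzyme of phosphatidylinositol synthesis, was 3.87 higher (SE 0.17), and MYO5B, a motor of recycling endosomes, 3.26 higher (SE 0.32). TMEM30B, a flippase subunit, was 2.82 higher, with an adjusted p of 0.0493 (limma) just inside the threshold. AP1M2, PROM2 and EPS8L2 did not pass, with differences of 2.52, 2.82 and 1.54 and adjusted p of 0.115, 0.0878 and 0.345 (limma). Leaving out 1 line at a time, between 6 and 11 of the 13 passed, and with both pairs merged none did. TMEM30B passed only when OVCA420 was the line left out (otherwise adjusted p = 0.0637 to 0.212), and PRSS8 did not pass without OVCA433, HeyA8, HeyC2 or TYK-nu (adjusted p = 0.0505 to 0.127), nor MYO5B without OVCA433, HeyA8 or HeyC2 (adjusted p = 0.0528 to 0.0943, limma). SPINT2 did not pass without OVCA429 or HeyA8 (adjusted p = 0.0536 and 0.0524, limma). PROM2 passed without OVCA420 (adjusted p = 0.00178, limma).

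The E-box letters CACCTG are the textbook binding site of ZEB1, and the windows around the start sites of the genes past the threshold were searched for them on both strands (CACCTG or CAGGTG). A RefSeq window (GRCh38.p14, 250 bases before to 50 after the most upstream start) was found for 110 of the 159 higher genes and 53 of the 68 lower genes. That is under 80% of each list, so a share for the lists as a whole is void. Among the genes with a window, 51 of 110 higher genes (46.4%) and 3 of 53 lower genes (5.66%) held the letters, beside 20.6% of the 27305 genes of the table and 19.6% of the 14239 tested genes with a window. These shares describe only the genes searched and were not tested, and a match describes letters and not binding. The 250 bases before the start are shown for 4 of the higher genes that held matches, to let the arrangement be seen. MACC1 and TMEM30B have 3 matches each, and the traffic genes RAB25 and CDS1 have 1 each, all in capitals. The windows are chr7:20217385-20217634 (minus strand), chr1:156060910-156061159 (plus), chr14:61281339-61281588 (minus) and chr4:84582877-84583126 (plus).
MACC1: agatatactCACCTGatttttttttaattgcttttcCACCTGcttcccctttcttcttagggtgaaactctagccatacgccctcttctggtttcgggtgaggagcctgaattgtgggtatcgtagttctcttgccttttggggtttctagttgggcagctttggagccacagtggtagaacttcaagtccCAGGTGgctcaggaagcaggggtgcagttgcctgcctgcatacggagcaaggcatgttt
RAB25: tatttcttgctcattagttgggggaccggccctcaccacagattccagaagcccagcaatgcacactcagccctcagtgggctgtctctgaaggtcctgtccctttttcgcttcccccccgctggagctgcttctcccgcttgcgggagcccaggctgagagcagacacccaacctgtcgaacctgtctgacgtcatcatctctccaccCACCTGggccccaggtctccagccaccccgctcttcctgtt
TMEM30B: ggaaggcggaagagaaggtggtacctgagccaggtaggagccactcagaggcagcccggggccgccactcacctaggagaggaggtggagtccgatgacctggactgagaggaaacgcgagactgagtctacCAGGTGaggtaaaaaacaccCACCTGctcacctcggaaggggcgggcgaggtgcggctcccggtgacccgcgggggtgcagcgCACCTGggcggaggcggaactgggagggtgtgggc
CDS1: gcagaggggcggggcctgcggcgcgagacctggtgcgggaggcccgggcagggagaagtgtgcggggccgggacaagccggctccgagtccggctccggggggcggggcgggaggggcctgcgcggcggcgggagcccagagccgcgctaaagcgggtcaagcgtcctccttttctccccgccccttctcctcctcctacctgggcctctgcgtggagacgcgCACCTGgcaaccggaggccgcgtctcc
RAB25 and TMEM30B each held 1 more match in the 50 bases after the start. ITGB6, LCP1, HOOK1, CTSH, PATJ, MYO5B, MST1R and FST held matches too. The windows of CD24, EHF, JUP, MARVELD2, CLDN4, LSR, SPINT1, FGFR2 and DDR1 held none. CDH1, MAL2, EPCAM, GRHL2, KRT19, ST14, SPINT2, ESRP2 and OVOL2 had no window and were not searched. Of 60 passing list members and largest differences, higher or lower, 36 had a window, and 13 windows held a match. Among the lower genes described below, the window of ZEB1 held 1 match and those of ZEB2, DDR2, TIE1, DOCK4, DOCK10 and FGF5 none.

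CDH1, the gene of E-cadherin, read 10.95, 11.01 and 10.96 in OVCA420, 10.99, 10.91 and 10.88 in OVCA429, and 10.50, 10.67 and 10.47 in OVCA433. It read 4.69, 4.65 and 4.88 in HeyA8, 4.84, 4.79 and 5.00 in HeyC2, and 4.45, 4.56 and 4.90 in TYK-nu. Every OVCA culture lay above every other culture, and the difference was 6.06 (SE 0.16, adjusted p = 0.000259, limma), or 66.9-fold. Of 12 epithelial adhesion genes, 5 were higher in the OVCA lines (over all genes 0.863%) and none lower, with a list median of 3.13. The count was 2 without OVCA433 or HeyC2 and 3 without OVCA429. The others that passed were EPCAM, P-cadherin CDH3 (4.83, SE 0.43), plakoglobin JUP (3.90, SE 0.30) and the plakophilin PKP3 (1.49, SE 0.21). PKP3 did not pass when any 1 of the 6 lines was left out (adjusted p = 0.0603 to 0.176), nor CDH3 without OVCA433, HeyA8 or HeyC2 (adjusted p = 0.0528 to 0.0806, limma).

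EPCAM, an epithelial adhesion molecule, read 11.37 to 12.25 in the OVCA cultures. On the other side it was uneven: HeyA8 cultures read 6.16, 5.87 and 5.17, HeyC2 cultures 2.06, 2.45 and 4.62, and TYK-nu cultures 3.22, 3.75 and 3.27. HeyC2 lay 2.69 below HeyA8 (difference -2.69, adjusted p = 6.83e-05, limma on cultures), and the difference of the sides was 7.67 (SE 0.72, adjusted p = 0.0116, limma). EPCAM did not pass without OVCA429, OVCA433 or HeyC2 (adjusted p = 0.0611 to 0.0629, limma).

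Desmosomal genes split the lines differently. Desmoplakin DSP read 8.72, 8.61 and 8.69 in HeyA8, not far below the OVCA cultures at 9.18 to 10.15, but 4.27, 4.55 and 4.50 in HeyC2 and 4.28, 4.17 and 4.13 in TYK-nu. The desmoglein DSG2 read 9.98 to 10.25 in both Hey sublines, overlapping the OVCA cultures at 10.01 to 10.87, and 2.92, 3.36 and 3.50 in TYK-nu. HeyA8 was thus on the OVCA side for both genes and HeyC2 for 1 of them. Neither gene passed between the sides, with adjusted p of 0.286 for DSP and 0.675 for DSG2 (limma), although DSP did without HeyA8 (adjusted p = 0.0123, limma).

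Of 15 tight junction genes, 5 were higher in the OVCA lines (over all genes 0.863%) and none lower, with a median difference of 2.41. Leaving out 1 line, the count ran from 2 without HeyC2 to 8 without OVCA420, and was 3 without OVCA429 or HeyA8. MARVELD2 (tricellulin), found where 3 cells meet, read 7.99 to 8.61 in the OVCA cultures and 3.43 to 4.32 in the others, 4.27 higher (SE 0.16, adjusted p = 0.000701, limma). PATJ, a scaffold of the Crumbs polarity complex, was 4.21 higher (SE 0.26), CLDN4 3.62 higher (SE 0.41), the basolateral polarity gene LLGL2 2.75 higher (SE 0.26) and MARVELD3 1.75 higher. MARVELD3 passed only when OVCA420 was the line left out (otherwise adjusted p = 0.0636 to 0.153), CLDN4 did not pass without OVCA433, HeyA8 or HeyC2 (adjusted p = 0.0901 to 0.106), nor LLGL2 without OVCA429 or HeyC2 (adjusted p = 0.0579 and 0.0848, limma). Other claudins did not follow the sides. CLDN7 read 9.35, 9.64 and 9.89 in TYK-nu, next to OVCA420 at 9.82 to 10.04, while no Hey culture was above 6.58, and it passed without TYK-nu (4.18, adjusted p = 0.013, limma). CLDN6 read 10.21 to 11.23 in OVCA429 and OVCA433 and 3.86, 3.61 and 4.18 in OVCA420, which was the level of HeyA8, HeyC2 and TYK-nu, and it passed without OVCA420 (6.85, adjusted p = 0.00178, limma).

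KRT19 was the only 1 of 12 keratins to pass, where 0.863% of all genes were higher. Its cultures read 11.84 to 12.25 in the OVCA lines and 5.48 to 6.16 in the others, a difference of 6.27 (SE 0.14, adjusted p = 0.000119, limma). KRT7 and KRT8, keratins of simple epithelia, were high in 5 of the 6 lines. KRT7 read 11.05 to 11.76 in the Hey sublines, overlapping OVCA420 at 11.22 to 11.40, and 5.64, 5.84 and 5.96 in TYK-nu. KRT8 read 12.07 to 12.46 in the Hey sublines and 7.62, 8.0 and 8.02 in TYK-nu, all below the OVCA cultures at 12.98 to 13.29. The difference of the sides was 2.5 for KRT7 (adjusted p = 0.621) and 2.37 for KRT8 (adjusted p = 0.528, limma). HeyA8 and HeyC2 thus had KRT7 and KRT8 at high levels together with low CDH1.

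**Figure D1:**
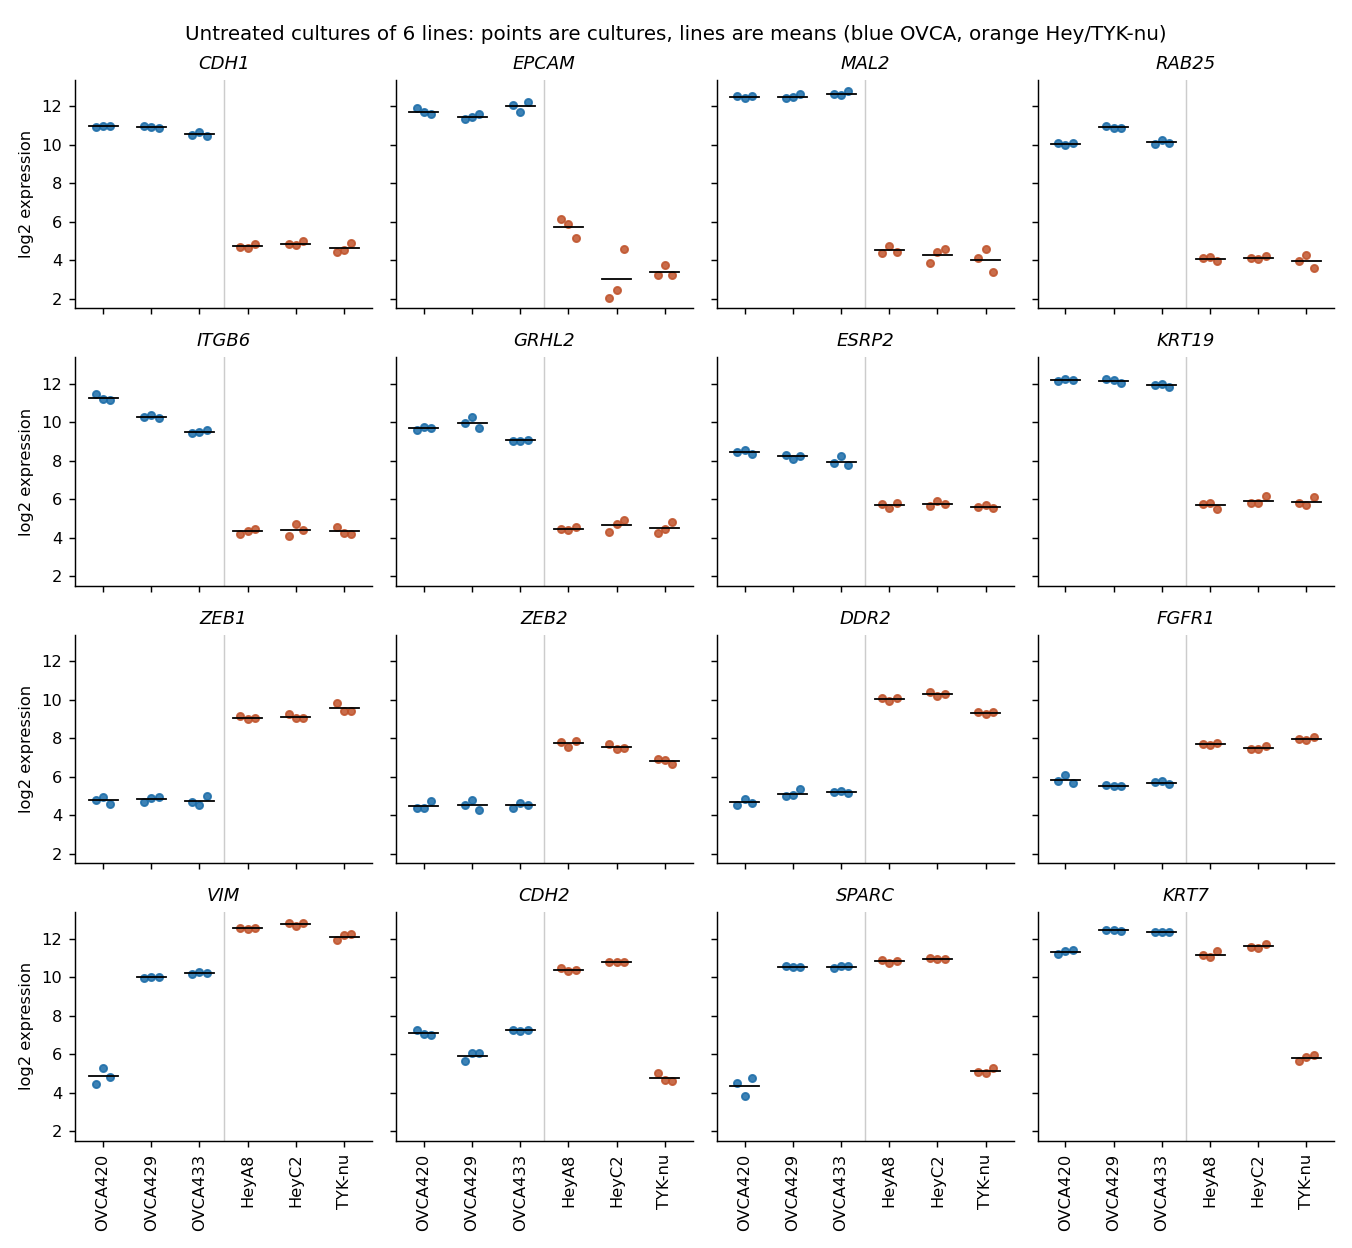
Log2 expression (y axis) of 16 genes in the untreated cultures of the 6 lines (x axis); points are cultures, short lines the mean of 3, blue the OVCA lines and orange HeyA8, HeyC2 and TYK-nu. In the upper 3 rows the sides do not overlap, as for CDH1 (10.47 or more against 5.00 or less). In the lowest row CDH2, SPARC and KRT7 split the lines in other ways. The sides do not overlap for VIM either, but OVCA420 lies far below the other OVCA lines.

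Of 12 epithelial regulators, 5 were higher in the OVCA lines (over all genes 0.863%) and none lower, with a median difference of 1.58. The count was 3 without OVCA433, HeyA8 or HeyC2. GRHL2, a grainyhead factor that sustains junction genes, read 9.04 to 10.26 in the OVCA cultures and 4.28 to 4.92 in the others, 5.03 higher (SE 0.26, adjusted p = 0.00179, limma). EHF, an ETS factor of epithelia, was 5.55 higher (SE 0.32). The splicing regulator ESRP2 was 2.51 higher (SE 0.16), OVOL2 1.61 higher (SE 0.18) and OVOL1 1.16 higher (SE 0.12). OVOL2 did not pass without OVCA433, HeyA8 or HeyC2 (adjusted p = 0.09 to 0.116), nor OVOL1 without OVCA429, OVCA433, HeyA8 or HeyC2 (adjusted p = 0.061 to 0.103, limma). ELF3 did not pass, and the OVCA lines were far apart: 10.88 to 10.97 in OVCA429 against 7.64 to 7.88 in OVCA433, with a difference between the sides of 4.08 (SE 0.81, adjusted p = 0.117, limma). ELF3 passed without OVCA429 (adjusted p = 0.0268, limma).

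ZEB1, the repressor of many of these genes, ran the other way. It read 4.79, 4.95 and 4.59 in OVCA420, 4.71, 4.91 and 4.97 in OVCA429, and 4.70, 4.54 and 5.02 in OVCA433. It read 9.19, 9.01 and 9.05 in HeyA8, 9.27, 9.07 and 9.07 in HeyC2, and 9.82, 9.43 and 9.44 in TYK-nu. No OVCA culture came near the others, and the difference was -4.46 (SE 0.16, adjusted p = 0.000701, limma), a 22.1-fold lower level in the OVCA lines. ZEB2 read 4.30 to 4.79 in the OVCA cultures, 6.69 to 6.91 in TYK-nu and 7.45 to 7.86 in the Hey sublines, a difference of -2.85 (SE 0.26, adjusted p = 0.0102, limma). ZEB2 did not pass without OVCA429, OVCA433 or HeyC2 (adjusted p = 0.0531 to 0.0806, limma), which left 1 factor.

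These were the only 2 of 10 transcription factors of the epithelial-mesenchymal transition to pass, where 0.369% of all genes were lower. SNAI2 read 8.63 to 9.08 in the OVCA cultures, 8.96 to 10.12 in the Hey sublines and 5.04, 4.23 and 4.94 in TYK-nu, so that TYK-nu alone of the 6 lines was low. TWIST1 read 6.88 to 7.40 in the OVCA cultures and 7.32 to 8.18 in the others (adjusted p = 0.348, limma). SNAI1 and PRRX1 overlapped between the sides and read at most 5.50 and 4.67 in any culture.

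The array carries probe sets for the 5 hairpins of the miR-200 family. Their mature strands are shown (RefSeq, GRCh38.p14) because they fall into 2 groups by seed, bases 2 to 8, in capitals.
hsa-miR-200b-3p: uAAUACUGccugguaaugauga
hsa-miR-200c-3p: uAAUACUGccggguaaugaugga
hsa-miR-429: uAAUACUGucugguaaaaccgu
hsa-miR-200a-3p: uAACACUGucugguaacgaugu
hsa-miR-141-3p: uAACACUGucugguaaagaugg
The first 3 share the seed AAUACUG and the last 2 the seed AACACUG. None of the 5 hairpin probe sets passed in limma. All MIR200C cultures lay below the array medians of 5.77 to 5.87, and the mean level of the 5 hairpins was 4.34 to 4.95 in the 6 lines. These are low readings, in which small differences or their absence say little. MIR200C read 4.58 to 5.75 in the OVCA cultures and 3.80 to 4.53 in the others, without overlap. The difference was 1.04 (SE 0.20, adjusted p = 0.114, limma). MIR141, its neighbour on chromosome 12, differed by 0.75 (SE 0.16, adjusted p = 0.133, limma), and its cultures overlapped. MIR200A, MIR200B and MIR429, which lie together on chromosome 1, differed by -0.10, -0.02 and 0.10. The arrays measured no mature microRNA.

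Markers of mesenchymal cells split the 6 lines in several ways. Of 15 mesenchymal cytoskeleton genes and 23 extracellular matrix genes none passed in limma on line means, and their median differences were -0.21 and -0.05. Of the cytoskeleton genes 2 were lower without OVCA420, 1 without TYK-nu and 4 in the fit on cultures with the line as a random block; of the matrix genes 1 was higher and 1 lower without TYK-nu, and 2 higher and 1 lower in that fit on cultures. VIM, the gene of vimentin, read 4.48, 5.27 and 4.82 in OVCA420, but 9.96 to 10.27 in OVCA429 and OVCA433 and 11.93 to 12.85 in the others. The cultures of the sides did not overlap, OVCA420 stood far below the other OVCA lines, and the difference of -4.13 had an SE of 1.47 (adjusted p = 0.346, limma). Without OVCA420 the VIM difference was -2.38 with an adjusted p of 0.0183 (limma). OVCA429 and OVCA433 thus combined high CDH1 with VIM at about 10 on the log2 scale.

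N-cadherin, CDH2, read 10.35 to 10.82 in the Hey sublines, but 5.03, 4.66 and 4.62 in TYK-nu, below every OVCA culture (5.66 to 7.27). Its difference was -1.89 (adjusted p = 0.735) and, without TYK-nu, -3.83 (adjusted p = 0.033, limma). SPARC, a matrix protein, was low in 1 line of each side: 4.52, 3.84 and 4.75 in OVCA420 and 5.11, 5.03 and 5.30 in TYK-nu, against 10.47 or more in the other 4 lines. Fibronectin FN1 was highest in the Hey sublines (11.61 to 12.39) and lowest in TYK-nu (7.61 to 8.0), with the OVCA cultures between. THBS1 had the largest difference of the matrix genes, 4.88 higher in the OVCA lines. Its line means were 12.72 to 13.34 there, 10.11 in HeyA8, 9.44 in HeyC2 and 4.95 in TYK-nu. THBS1 passed without TYK-nu (3.27, adjusted p = 0.0154, limma). FBN1 went the other way, by -2.42 on all 6 lines and -3.89 without TYK-nu (adjusted p = 0.00883, limma). FAP, a fibroblast surface protease, read 3.48 to 3.85 in the OVCA cultures and 6.03 to 8.99 in the others, a difference of -3.70 that did not pass (adjusted p = 0.0938, limma). FAP did pass without TYK-nu (-4.36, adjusted p = 0.0315, limma). It also passed on cultures with the line as a random block (adjusted p = 1.74e-06, limma), a fit that counts cultures as replicates of a side.

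**Figure D2:**
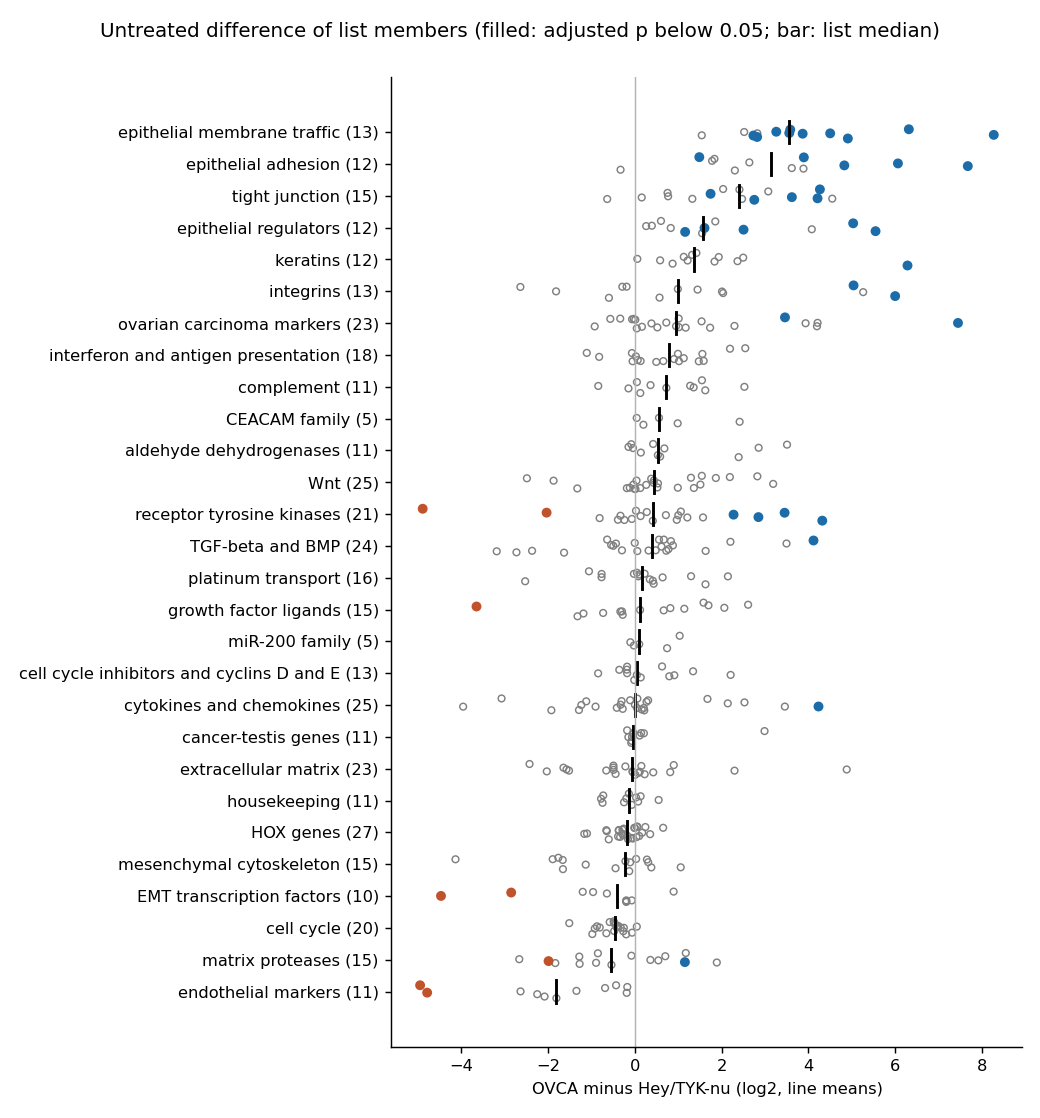
Difference between the OVCA lines and HeyA8, HeyC2 and TYK-nu (x axis, log2, line means) for each member of 28 gene lists (y axis, number measured in brackets); filled points have an adjusted p below 0.05, blue higher and orange lower in the OVCA lines, and bars are list medians. Epithelial membrane traffic has the highest median (3.56) with 10 filled points, and endothelial markers the lowest (-1.81) with 2.

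Among receptor tyrosine kinases, 4 of 21 were higher and 2 lower in the OVCA lines (over all genes 0.863% and 0.369%). The higher count was 2 when any line other than OVCA420 was left out, and the lower count was 1 without HeyA8. FGFR2 read 7.91 to 10.35 in the OVCA cultures and 4.49 to 5.13 in the others, 4.32 higher (SE 0.57, adjusted p = 0.0329, limma), but it did not pass when any line other than OVCA420 was left out (adjusted p = 0.0579 to 0.174, limma). FGFR1 ran the other way, 5.51 to 6.08 against 7.46 to 8.06, a difference of -2.03 (SE 0.17, adjusted p = 0.00814, limma). The collagen receptors DDR1 and DDR2 formed a like pair: DDR1 was 2.28 higher (SE 0.28), while DDR2 read 4.55 to 5.37 in the OVCA cultures and 9.26 to 10.39 in the others, a difference of -4.89 (SE 0.30, adjusted p = 0.00346, limma). ERBB3, a receptor of neuregulins, was 3.45 higher (SE 0.25), and MST1R, the receptor of macrophage-stimulating protein, 2.85 higher (SE 0.23). DDR1 passed only when OVCA420 was the line left out (otherwise adjusted p = 0.0631 to 0.149), and FGFR1 did not pass without HeyA8 (adjusted p = 0.0539, limma). AXL followed OVCA420 and TYK-nu and not the sides, with 8.10 to 8.25 in OVCA420, 8.98 to 9.11 in TYK-nu and 11.24 to 11.66 in the other 4 lines.

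Of 15 growth factor ligands only FGF5 passed, at 5.98 to 7.11 in the OVCA cultures and 9.60 to 10.59 in the others, a difference of -3.65 (SE 0.26, adjusted p = 0.00503, limma). Of 24 genes of TGF-beta and BMP signalling only FST passed, the gene of the activin antagonist follistatin, which was 4.12 higher in the OVCA lines (SE 0.49). The chemokine gene CXCL16 was the only 1 of 25 cytokines and chemokines to pass, 4.23 higher (SE 0.26). Of 15 matrix proteases, MMP2 was 1.16 higher (SE 0.15) and MMP14, a membrane-bound activator of it, had a difference of -1.99 (SE 0.22). MMP2 did not pass when any 1 of the 6 lines was left out (adjusted p = 0.057 to 0.141), nor MMP14 without OVCA429, OVCA433 or HeyC2 (adjusted p = 0.0818 to 0.124, limma). FST did not pass without OVCA433, HeyA8 or HeyC2 (adjusted p = 0.0767 to 0.106, limma). None of 25 Wnt genes passed in limma on all 6 lines. Beside the counts of these lists, 0.863% of all genes were higher and 0.369% lower.

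Of 13 integrins, 2 were higher (over all genes 0.863%) and none lower, and 5 were higher without OVCA420. ITGB6 read 11.48, 11.24 and 11.15 in OVCA420, 10.27, 10.37 and 10.21 in OVCA429, 9.46, 9.52 and 9.59 in OVCA433, and 4.08 to 4.74 in the other lines. The OVCA lines were ordered without overlap, and all were far above the rest, by 6.0 (SE 0.44, adjusted p = 0.00522, limma). ITGB4, the partner of hemidesmosomal integrin alpha 6, read 9.90 to 11.01 in the OVCA cultures and 5.17 to 5.61 in the others, 5.04 higher (SE 0.23, adjusted p = 0.00135, limma).

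Of 23 markers of ovarian carcinoma, 2 were higher (over all genes 0.863%) and none lower. The count was 1 without HeyA8 or HeyC2, 3 without OVCA429 and 7 without OVCA420. CD24, a surface glycoprotein, read 10.07 to 11.18 in the OVCA cultures and 2.5 to 3.75 in the others, 7.45 higher (SE 0.26, adjusted p = 0.000597, limma). SLPI, a secreted protease inhibitor, was 3.46 higher (SE 0.38), and was the marker lost without HeyA8 or HeyC2 (adjusted p = 0.0981 and 0.112, limma). MUC16, the gene of CA125, read only 5.39 to 6.66 in the OVCA cultures and 4.90 to 5.24 in the others, a difference of 1.01 that did not pass (adjusted p = 0.215), although it did without OVCA420 (adjusted p = 0.0435, limma). PAX8, a Müllerian lineage factor, read 5.75 to 6.01 in OVCA420 and 6.07 to 6.23 in TYK-nu against 8.69 to 9.96 in the other 4 lines.

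Among the other large differences, MACC1, a regulator of MET, read 9.41 to 9.63 in OVCA420, 11.84 to 12.12 in OVCA429 and OVCA433, and 3.28 to 4.35 in the others, 7.40 higher (SE 0.70, adjusted p = 0.0123, limma). CYP24A1, which inactivates vitamin D, had the same order, with 8.86 to 9.16 in OVCA420, 11.15 to 11.53 in OVCA429 and OVCA433, and 3.58 to 3.96 in the others. OVCA420 was the lowest OVCA line for both. MACC1 did not pass without OVCA429, HeyA8 or HeyC2 (adjusted p = 0.0629 to 0.0943), and CYP24A1 passed only when OVCA420 or TYK-nu was the line left out (otherwise adjusted p = 0.0512 to 0.0946, limma). LCP1, an actin bundling protein, was 5.65 higher, HOOK1, a dynein adaptor, 5.62 higher and the cathepsin gene CTSH 5.40 higher. On the lower side, DOCK10 and DOCK4 had differences of -4.68 (SE 0.42) and -4.03 (SE 0.19), and DOCK4 read 4.90 to 5.66 in the OVCA cultures against 9.04 to 9.48. The ETS factor ETV1 had a difference of -3.67 (SE 0.41), NNMT, a nicotinamide methyltransferase, -3.10 (SE 0.32), the sialic acid enzyme GNE -3.84 (SE 0.29) and the sialyltransferase ST6GAL1 -2.92 (SE 0.30). Of these genes LCP1 passed only when OVCA420 was the line left out (otherwise adjusted p = 0.0604 to 0.141), ETV1 and ST6GAL1 only without OVCA420 or TYK-nu (otherwise 0.0528 to 0.124 and 0.0599 to 0.0826), and DOCK10, NNMT and CTSH were lost without 3, 2 and 1 of the lines (limma).

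CDH5 and TIE1 were among the 3 largest differences of the 68 lower genes, and both are endothelial genes. CDH5, VE-cadherin, read 4.84 to 5.92 in the OVCA cultures, 10.47, 10.18 and 10.42 in HeyA8, 9.55, 9.34 and 9.55 in HeyC2, and 10.93, 11.02 and 11.16 in TYK-nu, a difference of -4.95 (SE 0.43, adjusted p = 0.00903, limma). TIE1, an endothelial receptor kinase, read 4.47 to 5.48 in the OVCA cultures and 9.12 to 11.06 in the others, a difference of -4.78 (SE 0.41, adjusted p = 0.00871, limma). They were the only 2 of 11 endothelial markers to pass, where 0.369% of all genes were lower. CDH5 did not pass without HeyA8 (adjusted p = 0.056), nor TIE1 without HeyC2 (adjusted p = 0.0591, limma).

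The rest of that list set TYK-nu apart from the Hey sublines. PECAM1 read 12.34, 12.17 and 11.99 in TYK-nu and at most 4.64 in any other culture. TEK, KDR, ESAM and ERG lay 5.43, 5.34, 4.07 and 4.06 higher in TYK-nu than in the mean of HeyA8 and HeyC2, and in all 8 of 11 markers were higher in TYK-nu, where 23.4% of all genes were (limma on cultures). The mean level of the list was 4.78 to 5.07 in the OVCA lines, 5.98 in HeyA8, 5.87 in HeyC2 and 8.66 in TYK-nu. VWF, EMCN and CLDN5 did not differ between TYK-nu and the Hey sublines at the threshold. The leukocyte marker PTPRC was at 2.55 to 3.22 in all 18 cultures. None of 13 leukocyte, 11 fibroblast and 7 mesothelial markers passed in limma on line means. The leukocyte list was not flat throughout, as CD68 had a difference of -2.63, the largest of that list. Its line means were 6.81 to 7.18 in the OVCA lines, 7.99 in HeyA8, 9.86 in HeyC2 and 11.04 in TYK-nu. The part of other cells in these values was not tested.

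**Figure D3:**
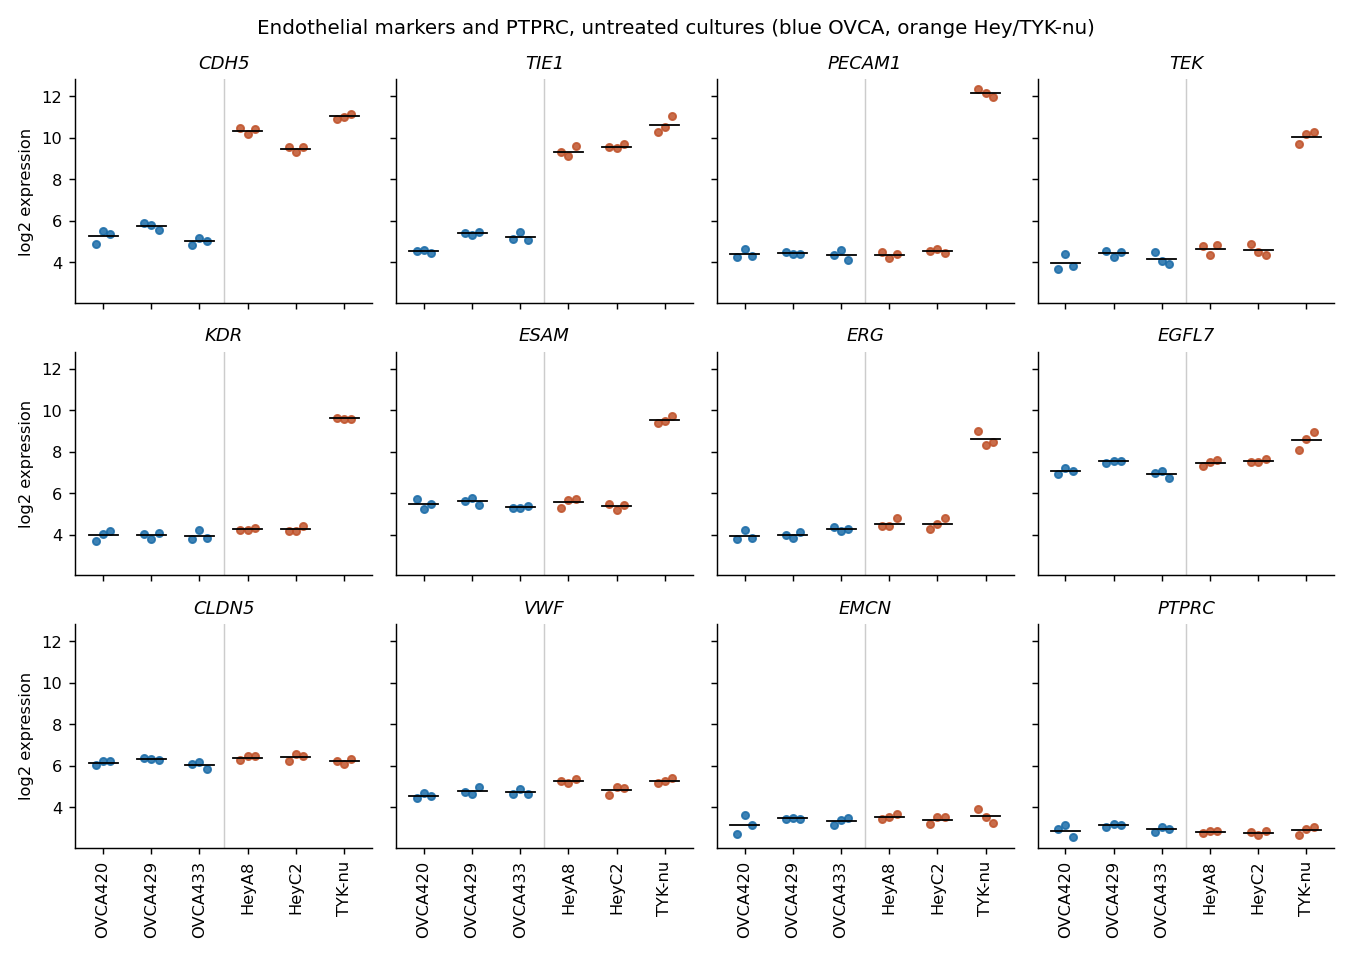
Log2 expression (y axis) of the 11 endothelial markers and of the leukocyte marker PTPRC in the untreated cultures of the 6 lines (x axis); points are cultures, short lines means, blue the OVCA lines and orange HeyA8, HeyC2 and TYK-nu. CDH5 and TIE1 are high in all 3 orange lines, whereas PECAM1, TEK, KDR, ESAM and ERG are high in TYK-nu alone of these 6 lines.

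The lines within a side differed in many genes. By an F test on cultures, 11318 genes (61.5%) differed among the OVCA lines and 9779 (53.1%) among HeyA8, HeyC2 and TYK-nu (limma, adjusted p below 0.05). Of the 227 genes past the threshold between the sides, 42 differed within neither side by that test. OVCA420 was the odd line of its side, with 9154 genes (49.7%) different from the mean of OVCA429 and OVCA433. ALDH1A1, a retinal dehydrogenase, read 13.12, 13.09 and 13.04 in OVCA420 and 4.80 to 5.41 in the other OVCA lines, and CEACAM6, an adhesion molecule, 11.64 to 11.72 against 3.26 to 4.04. KLK5, a secreted protease, ran the other way, at 5.41 to 5.87 in OVCA420 and 11.28 to 11.83 in OVCA429 and OVCA433. TYK-nu differed from the mean of the Hey sublines in 8474 genes (46%), and the sublines from each other in 4589 (24.9%). OVCA433 differs from OVCA420 and OVCA429 in batch as well as in line, and these cannot be told apart.

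Cultures of the same lines treated with cisplatin for 48 h at the GI50 dose gave 256 genes (1.39%) past the threshold between the sides. Of the 227 genes, 176 were among them and all 227 had the same sign, but treated and untreated cultures come from the same lines. CDH1 differed by 6.29 and ZEB1 by -4.66 in the treated cultures. The change with cisplatin differed between the sides in 0 genes (limma, Benjamini-Hochberg), while 1130 had an unadjusted p below 0.05. AKR1C3, an aldo-keto reductase, had a mean change of -0.54 in the OVCA lines and 0.32 in the others, and the immune ligand gene VTCN1 1.09 and -0.16, each with an adjusted p of 0.691 (limma). Without TYK-nu 13 genes passed.

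Among the 18 replicated lines of batches 1 to 3, the 6 lines lay at the ends of several of these genes. ZEB1 was highest in TYK-nu (9.56), HeyC2 (9.14) and HeyA8 (9.08), ahead of A2780 (8.32), and was 4.75 to 4.86 in the OVCA lines, with OVCAR-8 (4.76) among them and C13 (4.91) next. CDH1 was 9.58 or more in the OVCA lines, OVCAR-8, A2008 and C13, intermediate in FU-OV-1 (7.63) and OV90 (7.21), and 5.84 or less in the rest. RAB25 had no intermediate: it was 9.65 or more in the same 6 lines and 4.41 or less in the other 12. TIE1 was 9.34 or more in HeyA8, HeyC2 and TYK-nu and at most 6.61 elsewhere, but CDH5 was also high in IGROV-1 (10.25), DOV13B (10.16) and DOV13 (9.93). CYP24A1 was 8.99 to 11.43 in the OVCA lines and at most 7.42 in any other line.

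**Figure D4:**
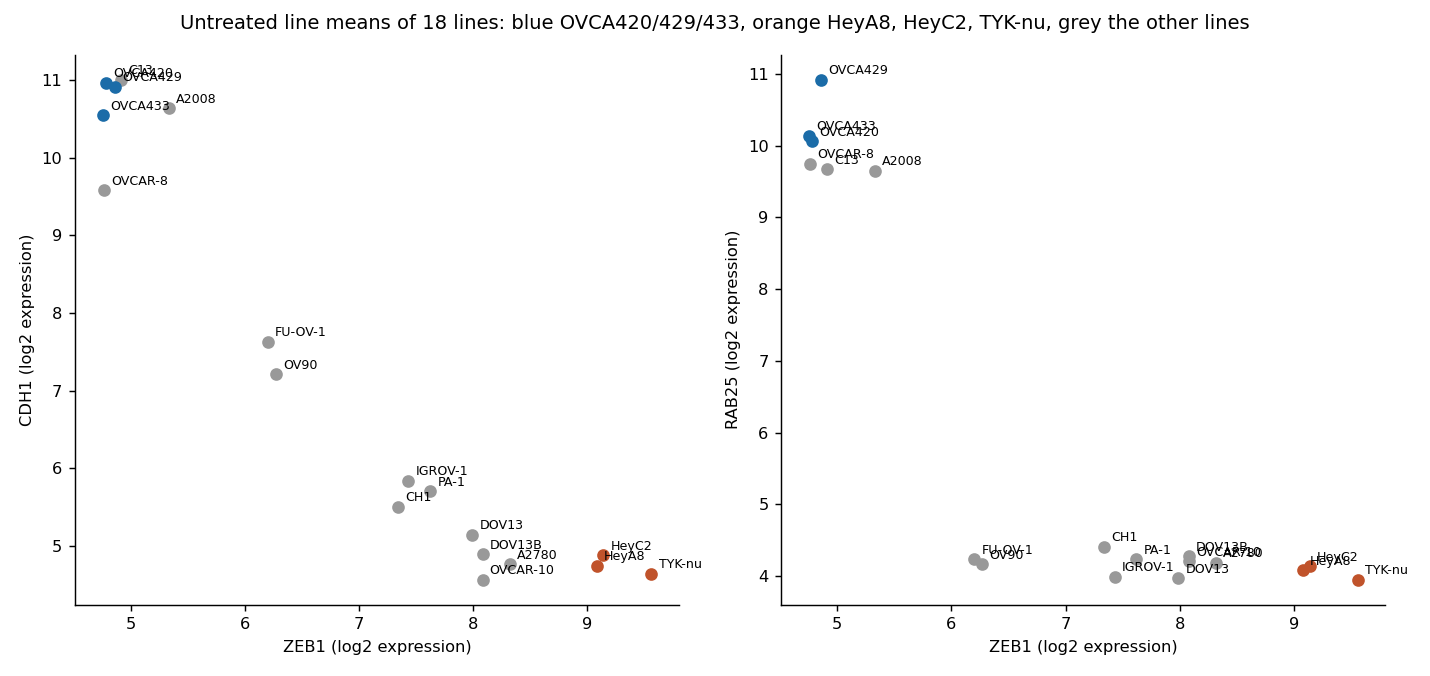
Untreated line means (log2 expression) of CDH1 and RAB25 (y axes) against ZEB1 (x axes) in 18 lines; blue the OVCA lines, orange HeyA8, HeyC2 and TYK-nu, grey the other 12. High CDH1 and RAB25 occur at ZEB1 of 5.33 or less; CDH1 has lines between (7.63 and 7.21) and RAB25 none.

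Each of the other 12 lines was placed on the side of the midpoint it lay nearest to. Of the 159 genes higher in the OVCA lines, OVCAR-8 was on the OVCA side for 121 (76.1%), A2008 for 119 and C13 for 117, whereas A2780 was there for 37 (23.3%), beside 46.7% to 52.2% of all genes over the 12 lines. The 68 lower genes gave another order: C13 was on the OVCA side for 82.4%, IGROV-1 for 76.5% (41.5% of the higher genes), A2008 for 75%, OVCAR-8 for 73.5% and A2780 for 57.4%. For the 10 membrane traffic genes that passed, OVCAR-8 and C13 were on the OVCA side for all 10 and A2008 for 9.

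OVCA432 and Hey, with 1 untreated culture each in another batch, give the same kind of contrast in lines the test did not use, without a replicate. Hey is the parent of HeyA8 and HeyC2, so it is not independent of them. Of the 159 higher genes 120 were higher in OVCA432 than in Hey, 75 of them at least 2-fold, and 2 were at least 2-fold the other way. Of the 68 lower genes 56 were lower in OVCA432, 34 of them at least 2-fold, and 1 went at least 2-fold the other way. Together 176 of the 227 (77.5%) had the same sign, beside 56.7% of all genes. Over all genes 7.54% were at least 2-fold higher and 8.29% at least 2-fold lower. MAL2 differed by 7.80, EHF by 6.64, CDH1 by 6.20, ZEB1 by -3.70 and ZEB2 by -3.37. Whole lists were mixed: 12 of 13 membrane traffic genes (median 1.54) and 12 of 15 tight junction genes (median 1.67) were higher in OVCA432, but only 6 of 12 adhesion genes (median 0.62) and 6 of 12 epithelial regulators (median 0.0018), with 8673 of all 18417 genes higher. Other genes carried over to a smaller extent or not at all: KRT19 differed by 1.12 and CYP24A1 by 0.18. ITGB4 (-0.06), LCP1 (-2.65) and FGFR1 (1.03) had the opposite sign.

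**Figure D5:**
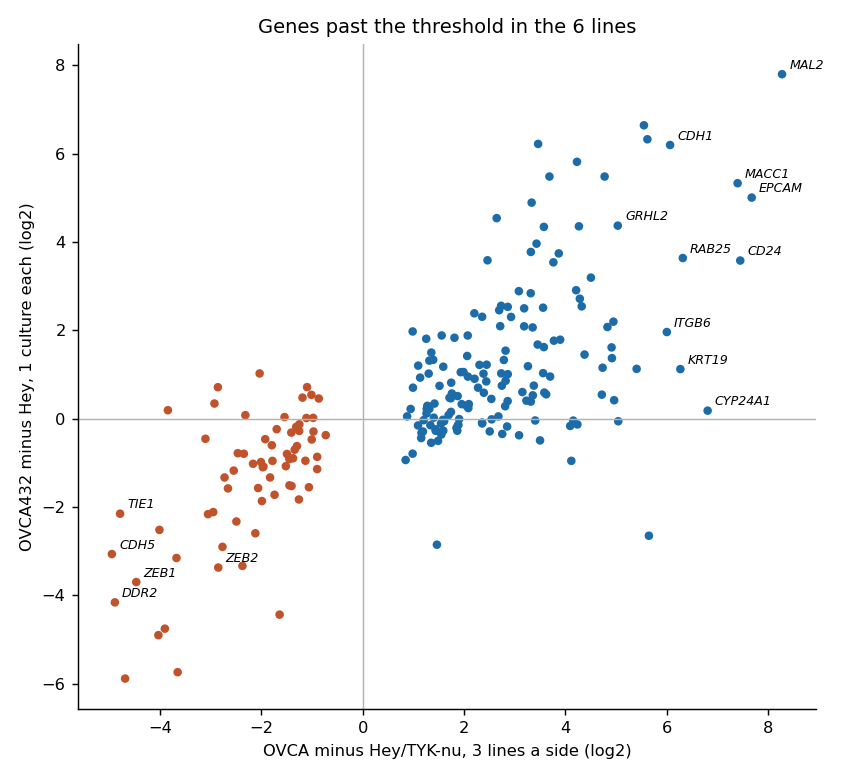
Difference between OVCA432 and Hey (y axis, log2, 1 culture each) against that between the 3 OVCA lines and HeyA8, HeyC2 and TYK-nu (x axis, log2) for the 227 genes past the threshold; blue higher and orange lower in the OVCA lines. Of the 227, 176 have the same sign on both axes; MAL2 (8.27 and 7.80) is large on both, and CYP24A1 (6.80 and 0.18) on the x axis only.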

How the data were processed

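The authors deposited one table of log2 values from Affymetrix Human Gene 1.0 ST arrays, and RMA is the tool that the submitters' processing notes name, with its version not given in the sources used here; the values were used unaltered. Of 33297 probe sets, 19460 had 1 gene symbol in the platform annotation; they gave 18417 genes, and 769 of these had several probe sets. Array values carry no read depth, and the number of arrays and lines limits the precision. Line means were tested with limma 3.58.1 in R 4.3.3 (lmFit, eBayes, two-sided, Benjamini-Hochberg over all genes, threshold 0.05). Lines within a side were compared on cultures. Nothing in the labels says that cultures of a line were grown independently, so tests on cultures measure only the spread between these samples. Promoters were searched and figures drawn with Python 3.11.15. Scripts were tested on simulated data.

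The lines, gene lists and named genes were chosen with earlier results of these data known. Named genes were the 15 largest differences, higher and lower, of passing genes whose cultures did not overlap, up to 4 passing members of each list (or 2 where none passed), and a fixed set. Other genes in the text, such as DSP, DSG2, the claudins, PECAM1 and ALDH1A1, were chosen after their values were seen. Alternatives tried were each line or replicate left out, batch 1 only, like lines merged, line or replicate blocks, centring, quantile normalization, filters on dim genes, probe set averaging and a minimum fold.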

Additional observations from a re-analysis of the deposited data

How the results depend on the processing

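The count of 227 genes between the sides ranged from 73 to 409 over leaving out 1 line at a time, and from 211 to 231 over leaving out replicate 1, 2 or 3. It was 118 with the batch 1 lines only, 79 with HeyA8 and HeyC2 as 1 line and 111 when a change above 1.5-fold was tested. Merging lines by their likeness was chosen after seeing the data. With OVCA429 and OVCA433 as 1 line the count was 125, and with both pairs merged it was 0. Of the 131 single gene values tracked, all 60 that had passed then no longer did. FN1, which had not passed, turned in sign (0.0286). A fit on cultures with the line as a random block (correlation 0.744) gave 1754, and with the replicate block added 1602, of which 225 were among the 227. Both fits count cultures as replicates of a side, so their p-values can be too small for 3 lines a side. Same-numbered untreated cultures of different lines did not deviate together in the median (median r 0.0213 over 45 pairs, -0.0199 over 90 pairs of different numbers). This does not show how the cultures were handled, and whether the numbers pair samples was not tested. The count was within 1.5 times under array centring, quantile normalization, dim genes left out, mean probe sets, trend and robust moderation and repeat arrays left out (204 to 237).

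The 0 genes for the cisplatin change became 21 with the random block and 21 with the replicate block, both fits on cultures with the same limit. Over lines left out the count ranged from 0 to 13. The F test counts stayed within 1.5 times (9465 to 11510 for the OVCA lines, 7366 to 9977 for the others), 11510 and 9977 with the replicate block. Values that changed sign belonged to genes that did not pass: over lines left out CEACAM6 ranged from -0.252 to 3.84, HOXB2 from -1.79 to 0.132, AXL from -1.2 to 0.683 and PAX8 from -1.72 to 0.424, the value opposite in sign being largest without OVCA420; without HeyA8 AXL was 0.0369 and PAX8 0.0996, without HeyC2 AXL 0.00157; with HeyA8 and HeyC2 as 1 line AXL 0.0192, PAX8 0.0158, FN1 0.219 and SPARC 0.468. Likewise, over lines left out SPARC ranged from -2.41 to 1.57, FN1 from -1.91 to 0.367, SNAI2 from -0.71 to 1.95, AKR1C3 from -1.7 to 1.17, ESAM from -2.07 to 0.014 and MIR200A from -0.215 to 0.0648. Over lines and replicates left out MIR200B ranged from -0.148 to 0.0632 and MIR429 from -0.00735 to 0.214, and MIR200B was 0.0398 with batch 1 only and 0.0324 without repeat arrays. The cause of these shifts was not tested.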
